A study of Mus musculus with 8 samples.

Results

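The comparison described here sets the female libraries labelled TCR1640 against the female libraries labelled SJL/J, across all genes. It uses 4 of the 8 columns of the deposited count table, chosen by strain and sex label and not by any measured value. The TCR1640 strain is SJL/J with an added transgenic receptor whose T cells recognise a protein of myelin, and plain SJL/J mice are the wild type. For both groups, mice of 35 to 55 days were used before they showed signs of disease. Cells of spleen and lymph nodes were kept for 4 days with anti-CD3 at 1 µg/ml, IL-23 at 20 ng/ml, IL-6 at 20 ng/ml, TGF-β at 4 ng/ml and IL-12 at 3 ng/ml, so that treatment is shared by all libraries. The protocols do not say how many mice gave cells to a library, and no source used here says whether the 2 columns of a group came from separate mice.

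As background, anti-CD3 drives T cells to divide by way of the receptor complex, IL-6 with TGF-β starts the Th17 program, IL-23 sustains it, and IL-12 favours the Th1 program. Naive T cells carry the homing receptor CCR7 and the transcription factors TCF-1 and KLF2, and lose them as they become effector cells. Whole spleen also holds B cells, myeloid cells, mast cells and basophils, megakaryocytes and blood progenitors, so a bulk culture can hold RNA from any of these. In such bulk samples, fewer cells of a type and less RNA per cell cannot be told apart.

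The columns held 3881893 and 4055369 counts for the TCR1640 label and 4097067 and 4281592 for the SJL/J label. Within a group the columns were nearly alike, with a chi-square per degree of freedom of 1.05 and 1.05 against 21.5 between the groups, so the 2 columns of a group were summed and counted as 1 sample. With n = 1 per group there is no test of strain, and no p-value is given. Ratios carry a 95% exact binomial interval that covers counting error only, and reads without molecular identifiers are not independent molecules. General leukocyte and T cell genes were well counted in all 4 columns, among them Cd3g with 1159 and 1245 counts for the TCR1640 label and 869 and 829 for the SJL/J label. The 15 genes of the mitochondrial genome were at 0 in every column.

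The T cell receptor segments went against the strain labels. Traj43, a joining segment of the alpha chain, had 5 of 66 and 1 of 53 alpha joining counts in the columns labelled TCR1640. It had 167 of 219 and 176 of 235 in those labelled SJL/J. A single segment thus took most of the alpha joining counts in the libraries labelled SJL/J and few in those labelled TCR1640, the strain with the transgenic receptor. Every direction below is therefore a direction between library labels.

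A feature was counted as apart when the summed counts differed at least 2-fold, after scaling by TMM, and the counting interval excluded equality. The genes tested are the 5810 with a mean of at least 8 CPM (counts scaled to a common library size) and no exon overlap with a gene on the opposite strand. The kit marks strand, and the strand setting of the counting is not given in the sources used here. Had it been opposite to the kit, the counts of every gene, those without overlap included, would come from the strand opposite to the gene, and this was not tested. A gene whose mean passes the level floor through 1 group only had to differ, so counts of listed genes apart describe those that passed. Of the 277 genes apart, 65 passed only through the SJL/J label and 49 only through the TCR1640 label. Of the genes tested, 162 were higher in the library labelled TCR1640, which is 2.79%, and 115 were lower, which is 1.98%. The same rule applied to the 2 columns of a group against each other found 11 genes for the TCR1640 label and 4 for the SJL/J label. The median log2 ratio over all tested genes was 0.02, and 82.1% of them lay within 1.5-fold. The higher side was mostly of moderate size, with 16 genes at 4-fold or more, and the lower side held 24 such genes. The balance of directions depends on the settings: 58.5% of the genes apart were higher, but 45.5% without the floor on level (635 higher and 762 lower), and 49.5% or 46.5% when column 1 or column 2 of the TCR1640 label was left out. It was 65.8% with a floor of 5 on the log2 CPM scale.

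**Figure D1:**
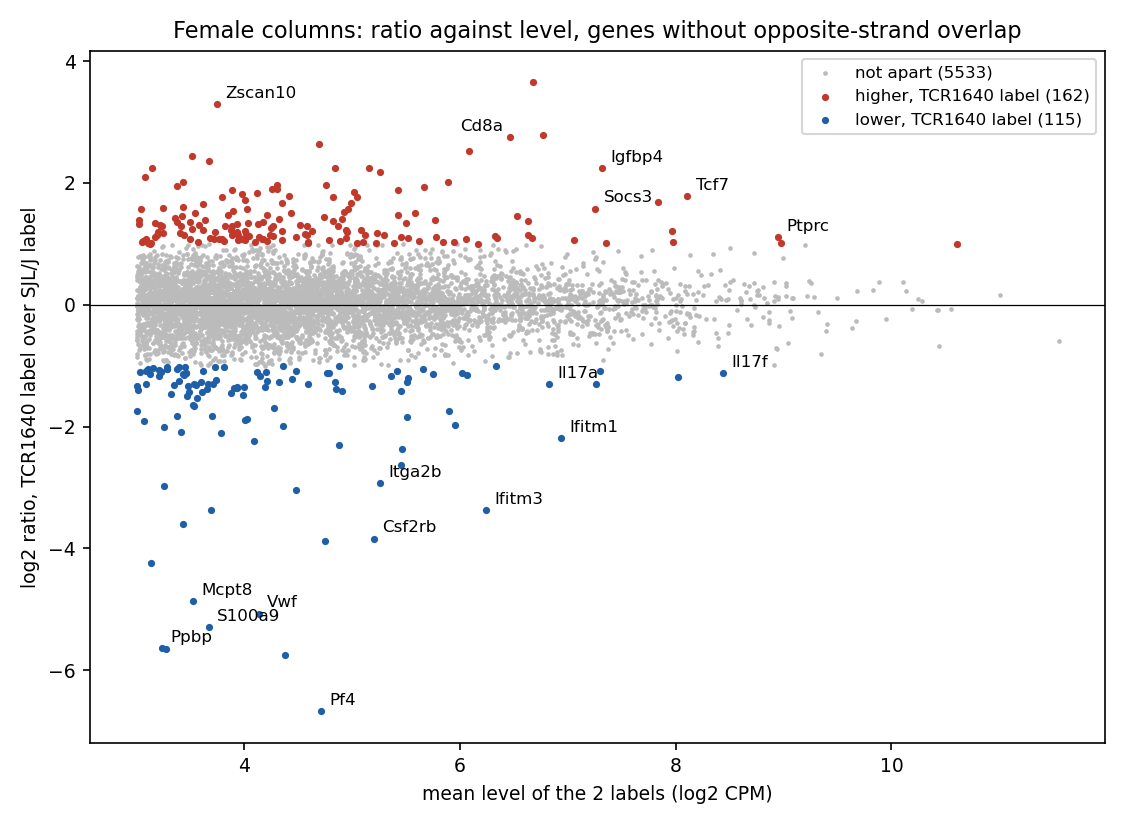
Log2 ratio of summed counts, TCR1640 label over SJL/J label, against the mean level in log2 CPM for the 5810 tested genes of the female columns; each point is a gene. Red marks the 162 genes that were higher and blue the 115 that were lower, and the points farthest from 0 lie on the lower side, with Pf4 at -6.67.

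Several of the genes farthest below equality are known from platelets, mast cells or neutrophils. Pf4 and Ppbp encode the platelet chemokines platelet factor 4 and pro-platelet basic protein and lie next to each other on chromosome 5 (Ppbp 90768518 to 90770063, Pf4 90772435 to 90773383, GRCm38). The 3 Ifitm genes described further down also lie close together, on chromosome 7. The bases just before the starts of these 5 genes, and of the platelet integrin gene Itga2b, are printed because their members moved together. Each run is the 250 bases before the start that RefSeq gives on GRCm38.p6, on the gene's own strand. GENCODE places some starts farther upstream, so that 239 of the 250 bases for Itga2b, all 250 for Ifitm1 and 26 each for Ifitm2 and Ifitm3 lie inside the GENCODE gene, and none do for Pf4 and Ppbp. The windows are chr5:90768268-90768517 (plus strand), chr5:90772185-90772434 (plus), chr11:102469884-102470133 (minus), chr7:140967826-140968075 (plus), chr7:140955962-140956211 (minus) and chr7:141010745-141010994 (minus). Capitals mark a match to the interferon response element, spelled GAAANNGAAA, or to the GATA letters, spelled GATAA or GATAG after an A or a T.
Ppbp: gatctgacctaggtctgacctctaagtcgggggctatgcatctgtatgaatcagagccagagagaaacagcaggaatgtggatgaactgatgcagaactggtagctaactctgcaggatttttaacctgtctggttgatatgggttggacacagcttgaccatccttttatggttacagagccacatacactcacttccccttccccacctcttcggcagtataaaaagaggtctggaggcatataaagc
Pf4: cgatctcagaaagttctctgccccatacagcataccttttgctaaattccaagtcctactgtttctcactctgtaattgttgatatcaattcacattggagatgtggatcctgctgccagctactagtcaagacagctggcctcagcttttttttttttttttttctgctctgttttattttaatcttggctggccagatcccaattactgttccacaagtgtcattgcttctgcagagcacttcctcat
Itga2b: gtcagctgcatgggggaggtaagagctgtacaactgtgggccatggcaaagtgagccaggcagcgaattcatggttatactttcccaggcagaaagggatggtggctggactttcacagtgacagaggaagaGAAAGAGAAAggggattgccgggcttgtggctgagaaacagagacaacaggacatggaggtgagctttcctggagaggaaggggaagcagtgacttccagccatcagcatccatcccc
Ifitm1: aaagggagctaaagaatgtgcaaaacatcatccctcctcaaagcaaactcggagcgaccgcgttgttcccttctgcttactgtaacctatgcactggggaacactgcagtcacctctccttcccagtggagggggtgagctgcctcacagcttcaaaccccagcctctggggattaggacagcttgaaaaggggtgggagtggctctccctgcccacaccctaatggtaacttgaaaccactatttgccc
Ifitm2: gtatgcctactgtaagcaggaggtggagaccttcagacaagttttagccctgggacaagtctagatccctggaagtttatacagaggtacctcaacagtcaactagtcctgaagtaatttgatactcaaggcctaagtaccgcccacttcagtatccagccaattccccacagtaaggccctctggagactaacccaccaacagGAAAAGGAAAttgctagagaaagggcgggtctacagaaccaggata
Ifitm3: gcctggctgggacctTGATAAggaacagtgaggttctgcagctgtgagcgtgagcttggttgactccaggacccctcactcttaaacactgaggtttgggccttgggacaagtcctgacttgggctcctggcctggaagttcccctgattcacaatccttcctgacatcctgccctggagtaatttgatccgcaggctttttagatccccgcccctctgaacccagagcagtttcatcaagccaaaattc

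All 6 windows were searched on both strands for both. The GATA letters were found once, in the window of Ifitm3, while 27.1% of the 27025 promoters of the table held a match. The element GAAANNGAAA was found in the windows of Itga2b and Ifitm2 and not in the other 4, against 3.04% of all promoters. Matches are described as letters only.

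Pf4 had 2 and 2 counts in the columns labelled TCR1640 and 223 and 213 in those labelled SJL/J, a log2 ratio of -6.67 (counting interval -8.56 to -5.31). Ppbp had 0 and 0 counts against 76 and 83, at least 49.6-fold lower when the summed 0 is set at a floor of 3 counts (log2 bound -5.63). The bound was -4.71 or -4.65 on the log2 scale when column 1 or column 2 of the TCR1640 label was left out, since the same floor then stands against fewer counts in all. Vwf, the adhesive glycoprotein of platelets and endothelium, had 5 and 3 counts against 146 and 141, a log2 ratio of -5.07. The columns within a group were close for these genes and count as 1 sample. The integrin chains of the platelet fibrinogen receptor were also lower, at smaller ratios. Itga2b had 29 and 41 counts against 291 and 279 (log2 ratio -2.93), and Itgb3 had 67 and 90 against 315 and 287 (-1.84). Of the 24 platelet and megakaryocyte genes listed, 9 were tested. Of these, 6 were lower and none was higher, against 1.98% lower and 2.79% higher over all tested genes. Of the 9, Pf4, Ppbp, Vwf and Gata1 reached the level floor only through the SJL/J label, so this count describes the members that passed and not the list. The tested members that were not apart were Gp1ba at 0.26, Fli1 at 0.25 and F2rl2 at -0.35. A further 11 members lay under the level floor, and 4 overlap a gene on the other strand. Among them Tubb1, the platelet tubulin, had 0 and 0 counts against 27 and 23, and Treml1, a receptor of platelet granules, had 0 and 0 against 15 and 21. Summed over the whole list, the level was 232.8 CPM for the TCR1640 label and 669 CPM for the SJL/J label.

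Several mast cell and basophil genes were lower, and Kit was higher. Mcpt8, a basophil protease, had 3 and 3 counts for the TCR1640 label and 95 and 92 for the SJL/J label, a log2 ratio of -4.87 (interval -6.33 to -3.72). Gata2, a transcription factor of mast cells and progenitors, had 9 and 9 counts against 100 and 98 (-3.36), and Il1rl1, the IL-33 receptor, had 15 and 17 against 79 and 66 (-2.09). Kit, the stem cell factor receptor, had 193 and 187 counts for the TCR1640 label and 67 and 61 for the SJL/J label, a log2 ratio of 1.66 in the other direction. Of 24 listed genes 8 were tested, with 5 lower and 1 higher, against 1.98% and 2.79% over all tested genes. All 5 lower members passed the level floor only through the SJL/J label. Under the floor, the basophil protease gene Prss34 had 1 and 0 counts against 29 and 40, and Fcer1a, the IgE receptor chain, had 1 and 0 against 12 and 10. The whole list summed to 188 CPM for the TCR1640 label and 289.5 CPM for the SJL/J label.

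Neutrophil granule genes had few counts and lay on the same side. S100a9, a subunit of calprotectin, had 4 and 1 counts against 107 and 102, a log2 ratio of -5.29 (interval -6.93 to -4.05), and was the only tested member of the 22 listed. Its ratio was -6.69 without column 1 and -4.62 without column 2 of the TCR1640 label, and it passed the level floor only through the SJL/J label. S100a8, its partner, had 0 and 0 counts against 28 and 37. Elane, Ltf and Lcn2, which encode neutrophil elastase, lactoferrin and lipocalin 2, had 0 counts for the TCR1640 label and summed to 18, 15 and 9 for the SJL/J label. Ly6g, the surface marker of mature mouse neutrophils, went the other way with 25 and 10 counts against 11 and 5. The whole list summed to 38.5 CPM against 104.8 CPM, so these genes were scarce in both groups.

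Among progenitor genes, the tested members other than Kit were lower. Of 20 haematopoietic progenitor genes 4 were tested: Gata2 (above), Mycn and Adgrg1 were lower, and Kit was higher. Gata2 passed the level floor only through the SJL/J label, so this count describes the members that passed. Over all tested genes 1.98% were lower and 2.79% were higher. Mycn, a growth transcription factor, had 35 and 37 counts against 121 and 129 (log2 ratio -1.70). The whole list summed to 106.3 CPM against 309.4 CPM. Under the floor, Tal1, which specifies blood stem and red cell lineages, had 0 and 0 counts against 26 and 39. Among red cell genes, the carbonic anhydrase Car1 had 1 and 1 counts against 48 and 52, but the globin gene Hba-a1 had 39 and 30 against 19 and 17. The red cell list of 22 summed to 112.3 CPM against 161.9 CPM, and 2 of its members were tested, neither apart.

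The beta chains of the GM-CSF, IL-3 and IL-5 receptors, which myeloid cells carry, were lower. Csf2rb had 13 and 25 counts in the columns labelled TCR1640 and 264 and 317 in those labelled SJL/J (log2 ratio -3.84, interval -4.35 to -3.37). Csf2rb2, which encodes the IL-3 specific form next to it, had 12 and 15 against 215 and 210 (-3.88). Both genes passed the level floor only through the SJL/J label. Csf2, which encodes GM-CSF, had 1 count in each of the 4 columns and lies opposite Gm12223. Ccr1, a chemokine receptor of myeloid cells, had 19 and 17 counts against 80 and 57 (-1.83), and it also passed the floor only through the SJL/J label. Csf1, the macrophage growth factor, had 73 and 56 against 162 and 207 (-1.42). The platelet, mast cell, progenitor and neutrophil lists given above had lower sums for the TCR1640 label too, but the monocyte list had not (values below), and the part of cell composition in these genes was not tested.

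Markers of the remaining cell types were mostly scarce. Among B cell genes, Cd79a, a chain of the B cell receptor complex, was the only tested member of 22, with 114 and 93 counts against 60 and 66 (log2 ratio 0.81, not apart). Igkc, the kappa light chain constant region, had 81 and 82 counts against 220 and 217 (-1.33) but was not a tested member of the B cell or plasma cell list. The 7 tested plasma cell genes had none apart and a median of -0.44. Of 24 monocyte and macrophage genes, Cd163, a scavenger receptor, had 2 and 2 counts against 40 and 38, and Chil3, a chitinase-like protein, had 0 and 0 against 21 and 12. Both lie under the floor. Ctss, the cathepsin of antigen presentation, was tested and higher (132 and 141 against 66 and 60, 1.21), and the whole monocyte list summed to 301.2 CPM against 297.7 CPM. Of 14 listed genes of gamma-delta and innate-like T cells 2 were tested, and neither was apart. Trdc, the delta chain constant region, had 42 and 35 counts against 175 and 183 (-2.12) and overlaps Gm43434, so it is uncertain. Zbtb16, the factor PLZF of innate-like T cells, had 1 and 2 counts against 11 and 12. Ncr1, the receptor that defines natural killer cells, had 0 and 0 counts against 1 and 0.

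On the higher side, most tested genes of naive and quiescent T cells were higher. Tcf7, which encodes TCF-1, had 1634 and 1738 counts for the TCR1640 label and 525 and 523 for the SJL/J label, a log2 ratio of 1.78 (interval 1.68 to 1.88). Klf2, which keeps T cells quiescent, had 248 and 247 against 66 and 51 (2.18). Ccr7, the chemokine receptor for entry into lymph nodes, had 519 and 548 against 203 and 211 (1.46). The 2 columns of a label were close for these genes and count as 1 sample. Of 20 listed genes 12 were tested, 8 were higher against 2.79% over all tested genes, and none was lower. The median was 1.62, but 1.08 with overlapped genes included and 1.78 without the level floor. Ggt1 and Scml4 passed the level floor only through the TCR1640 label. Igfbp4 (2.24), Ggt1 (2.64), Scml4 (2.37) and Foxp1 (1.03) were also among the members apart. Foxp1 did not hold its call under RLE scaling (0.99), without column 1 of the TCR1640 label (0.84) or without column 2 of the SJL/J label (0.95). Il7r, the IL-7 receptor chain of resting T cells, stood at 0.42 and S1pr1, the receptor for exit from lymph nodes, at 0.61, and neither was apart. Txk at 0.19 and Cd27 at 0.87 were the remaining tested members. The list was chosen with earlier results of these data known, so its count is not independent support of its direction.

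Genes of CD8 and killer T cells were also higher in part. Cd8a, a chain of the CD8 coreceptor, had 567 and 647 counts against 110 and 83 (log2 ratio 2.75, interval 2.53 to 2.97). Cd8b1, the other chain, had 461 and 453 against 89 and 80 (2.53). Between these genes on chromosome 6 lies the noncoding gene Gm44175 (71354351 to 71360829), with 707 and 789 counts against 59 and 68, a log2 ratio of 3.65. It was singled out after its values were seen. The killer lectin receptors Klrd1 (51 and 64 counts against 17 and 9, log2 ratio 2.24, or 2.83 without column 1 of the SJL/J label) and Klrk1 (97 and 118 against 32 and 51, 1.47) and the granzyme gene Gzma (56 and 72 against 26 and 27, 1.37) were higher. The main killing proteins were not apart: Gzmb stood at 0.16 (407 and 424 counts against 374 and 422) and Prf1, perforin, at 0.42. Of 21 listed genes 10 were tested, 5 were higher against 2.79% over all tested genes, and none was lower. The median was 1.17, and Gzma and Klrd1 passed the level floor only through the TCR1640 label. Cd4, the coreceptor of helper T cells, had 621 and 623 counts against 943 and 1018, a log2 ratio of -0.56 that did not reach the fold. The 4 tested genes of the CD4 lineage were not apart and had a median of 0.05.

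**Figure D2:**
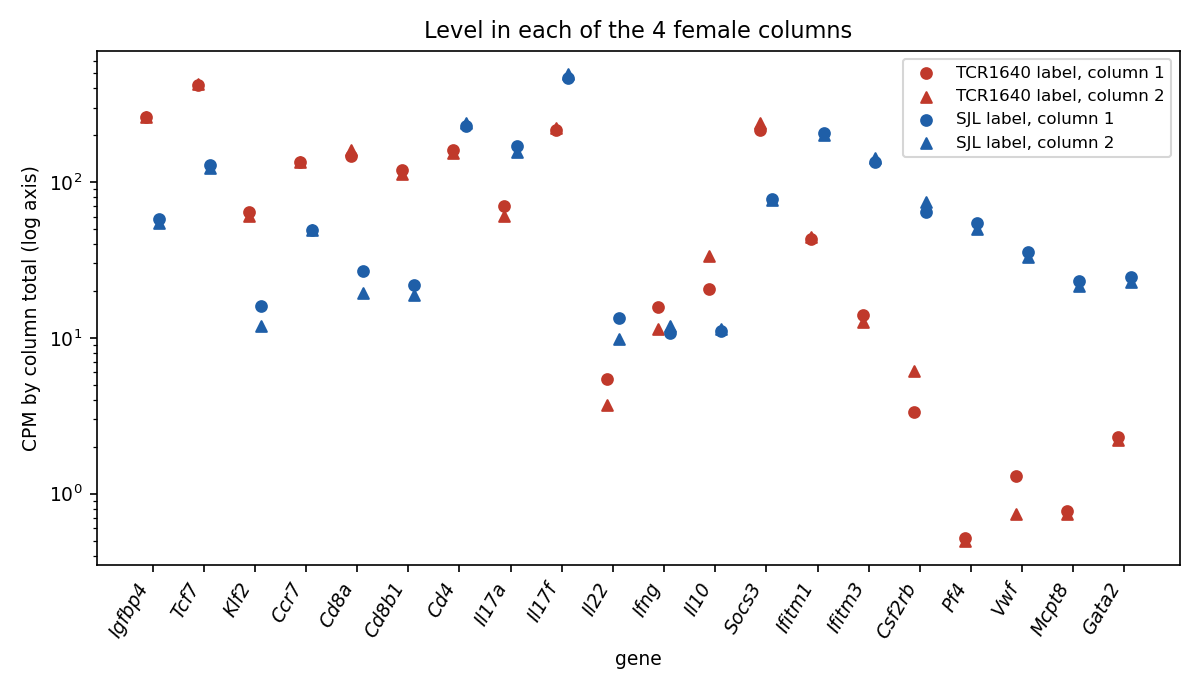
CPM by column total, on a log axis, for 20 genes in each of the 4 female columns; red is the TCR1640 label, blue the SJL/J label, circles are column 1 and triangles column 2. The columns of a group lie close together and count as 1 sample, and those of Ifng overlap between the labels.

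Receptor signalling genes differed less than the naive genes. Of 16 tested genes of the T cell receptor complex and its signalling, only Ptprc was apart, and the median was 0.37. Ptprc encodes CD45, the phosphatase that primes receptor signalling, and had 2577 and 2762 counts against 1316 and 1327 (log2 ratio 1.11, interval 1.04 to 1.18). Cd3d (0.52) and Lat (0.51) stood above 0, and Zap70 (-0.35) and Nfatc2 (-0.50) below. Slamf6, a receptor of stem-like and naive T cells, had 55 and 53 counts against 13 and 14 (2.09). Cd38, an ectoenzyme of activated and regulatory lymphocytes, had 120 and 128 against 34 and 34 (1.96). Of 7 tested Notch pathway genes, the ubiquitin ligase gene Dtx1 (65 and 72 against 18 and 18, 2.02) and the glycosyltransferase gene Lfng (254 and 244 against 97 and 95, 1.47) were higher and the median was 0.22. Dtx1 and Slamf6 passed the level floor only through the TCR1640 label.

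The Th17 cytokine genes, which the culture was set to induce, were lower in the library labelled TCR1640. Il17a had 271 and 245 counts against 694 and 662, a log2 ratio of -1.30 (interval -1.45 to -1.15). Il17f had 831 and 895 against 1911 and 2108 (-1.12), and Il22 had 21 and 15 against 55 and 42 (-1.34). For these genes too, the 2 columns of a label count as 1 sample. The leukotriene receptor gene Ltb4r1 was the other tested member apart, with 28 and 38 counts against 94 and 88 (-1.37). Of 22 Th17 genes 11 were tested, 4 were lower against 1.98% over all tested genes, none was higher, and the median was -0.79. It was -0.48 with overlapped genes included and -0.67 without the level floor. Of the 11, 2 passed the floor only through the SJL/J label, Il22 among them, so the count describes the members that passed. Il23r, the IL-23 receptor, stood at -0.94 (interval -1.40 to -0.49) and Batf, a transcription factor that opens Th17 genes, at -0.79, both short of the fold. Il23r passed it without column 1 of the TCR1640 label (-1.24), and barely without column 2 of the SJL/J label. On the other side, Il6st, the signalling chain of the IL-6 receptor, had 179 and 171 counts against 90 and 97, a ratio of 1.00 that just missed the fold. It passed the fold when column 2 of the TCR1640 label, or column 1 or 2 of the SJL/J label, was left out (1.02, 1.01 and 1.05).

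Genes of the Th1 program were level by this rule. Of 22 listed genes 14 were tested, none was apart, and the median was 0.20. Ifng had 61 and 46 counts against 44 and 51, a log2 ratio of 0.27 whose interval (-0.15 to 0.68) includes equality, and the groups overlapped. Tbx21, the Th1 factor T-bet, had 84 and 86 counts against 96 and 116 (-0.22, interval -0.52 to 0.07). Il18r1, the IL-18 receptor, had 666 and 693 counts against 472 and 457 (0.64). With summed counts of 107 and 95, the interval of Ifng is wide.

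Regulatory T cell genes were split. Il10, the anti-inflammatory cytokine, had 80 and 136 counts against 45 and 49, a log2 ratio of 1.29 (interval 0.94 to 1.66). Its columns labelled TCR1640 differed more than those of most genes, and without column 2 the ratio was 0.85 and the gene was no longer apart. Izumo1r, the folate receptor 4 of regulatory and anergic cells, had 136 and 124 counts against 60 and 65 (1.15), and Gpr83 had 49 and 56 against 25 and 21 (1.29). By contrast Il2ra, the high-affinity IL-2 receptor chain, had 1272 and 1281 counts against 2638 and 2770 (-0.99), and Ctla4, an inhibitory receptor, had 731 and 789 against 1307 and 1434 (-0.76). Both intervals excluded equality, and neither gene reached the fold. Il2ra did reach it with RLE scaling (-1.03), barely with library totals, and without column 1 or column 2 of the TCR1640 label (-1.06 and -1.01). Of 18 listed genes 10 were tested, and 3 were higher, against 2.79% over all tested genes. The median was -0.43, but 0.06 with overlapped genes included and -0.08 without the level floor, so its sign depends on the genes tested. Of the members that were higher, Gpr83 passed the level floor only through the TCR1640 label. Foxp3 had 579 and 553 counts against 640 and 687 (-0.13), and it overlaps Ccdc22 and is uncertain.

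Among feedback inhibitors of cytokine signalling, Socs3, which is induced by IL-6 family cytokines and damps STAT3, had 831 and 973 counts against 319 and 327 (log2 ratio 1.58, interval 1.45 to 1.71). Socs1, which damps interferon signals, had 135 and 160 against 74 and 76 (1.07), but stood at 0.93 without column 2 of the TCR1640 label. Of 8 family members 4 were tested, 2 were higher against 2.79% over all tested genes, and Socs4 (0.40) and Socs7 (-0.16) were not apart. The interferon gamma list held 15 tested genes, of which Socs1 alone was apart, with a median of 0.46, and 12 lay above 0. The 5 tested type I interferon genes were not apart and ranged from 0.49 to 0.92.

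Against that, the interferon-induced transmembrane genes were lower. They encode small membrane proteins that block virus entry. Ifitm3 had 54 and 51 counts in the columns labelled TCR1640 and 552 and 611 in those labelled SJL/J, a log2 ratio of -3.37 (interval -3.68 to -3.09). Ifitm1 had 168 and 179 against 841 and 855 (-2.19), and Ifitm2 had 24 and 23 against 120 and 117 (-2.24). All 3 tested members of the 7 listed were lower, against 1.98% over all tested genes, and the others had at most 13 counts in a group. Their promoter windows are printed above. Ifitm2 passed the level floor only through the SJL/J label. Of the myeloid and progenitor genes given above, some were lower as well, such as Csf2rb and Gata2, and others were higher, such as Kit and Ctss, and their part in the result was not tested.

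**Figure D3:**
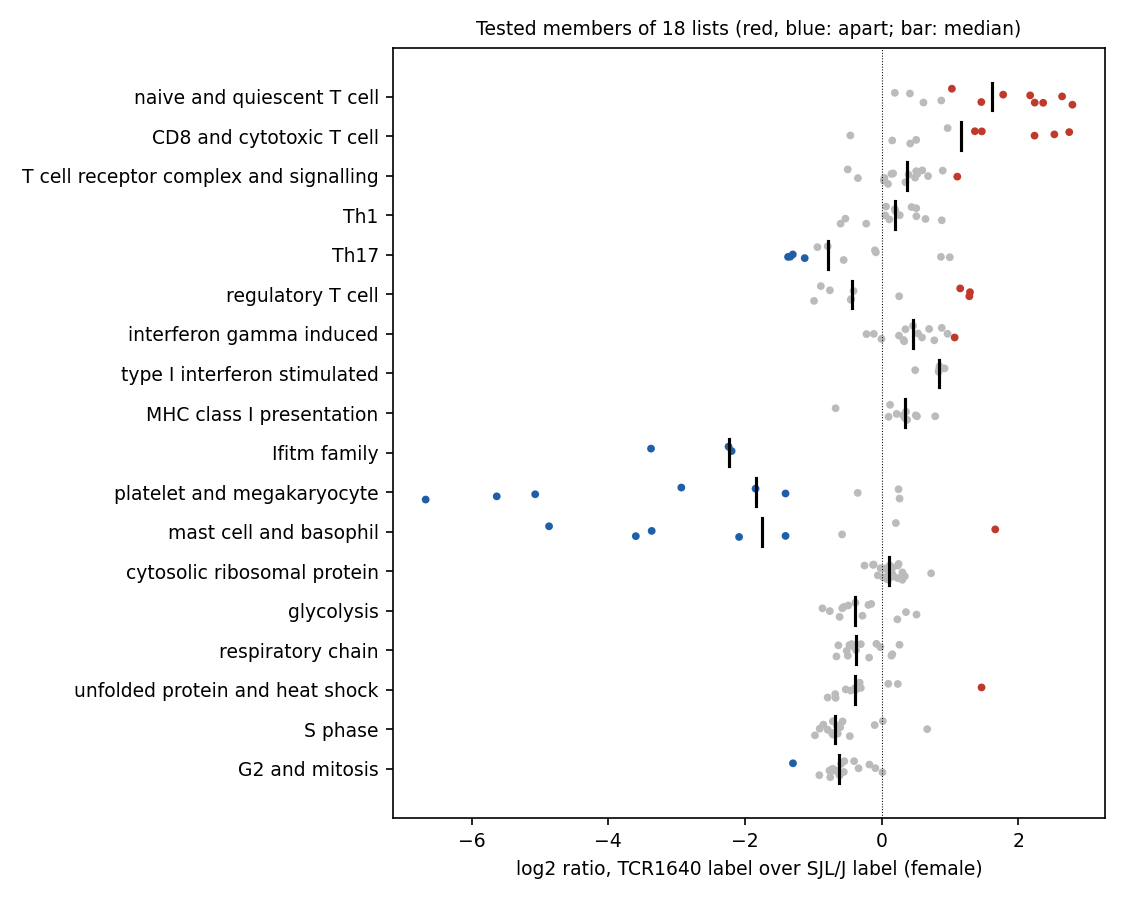
Log2 ratios, TCR1640 label over SJL/J label, of the tested members of 18 gene lists in the female columns; each point is a gene, red is higher and apart, blue lower and apart, grey not apart, and the bar is the list's median. The naive list has its median at 1.62 and the platelet list at -1.84, while the ribosomal genes lie close to 0. These medians cover members that passed the level floor and have no overlap. With overlapped genes included the naive median was 1.08.

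Genes of growth and division lay mostly under equality without reaching the fold. Over all 5810 tested genes, 3023 lay above 0. Of 18 tested genes of G2 and mitosis 17 lay below 0, 1 was apart, and the median was -0.63. Bub1, a spindle checkpoint kinase, was the member apart, with 23 and 30 counts against 67 and 72 (-1.30). It passed the level floor only through the SJL/J label. Mki67, the proliferation marker Ki-67, had 1432 and 1477 counts against 2470 and 2623 (-0.71, interval -0.78 to -0.65). Of 16 tested S phase genes 14 lay below 0 with a median of -0.68, and Ccne1, cyclin E1 of the G1 to S step, stood above at 0.67. In glycolysis, 10 of 13 tested genes lay below 0 with a median of -0.38, among them Ldha, lactate dehydrogenase (920 and 925 against 1470 and 1546, -0.61). In the unfolded protein and heat shock list 9 of 12 lay below 0, with Calr, calreticulin, at -0.67, while the inducible chaperone gene Hspa1b had 68 and 56 counts against 25 and 23 and was higher (1.46). Hspa1b passed the level floor only through the TCR1640 label. Of 8 tested serine and one-carbon enzymes, Psat1 was lower (22 and 24 against 58 and 80, -1.49), and it passed the level floor only through the SJL/J label. In the mitochondrial respiratory chain, 12 of 15 tested nuclear genes lay below 0 with a median of -0.37. The 20 tested proteasome genes had a median of -0.11 and the 18 of cholesterol and fatty acid synthesis -0.23, with none apart in either. The JAK and STAT list had 6 tested genes, none apart, and a median of 0.38. The 12 tested TGF-β pathway genes had none apart and a median of 0.08. The 29 tested cytosolic ribosomal protein genes had none apart and a median of 0.11, close to the median over all tested genes. For these lists the medians, not calls, carry the description, and they cover genes without overlap. Over the overlapped members above the floor, medians were nearer 0 for S phase (-0.11, 12 genes) and for G2 and mitosis (-0.35, 9 genes). They were -0.19 over 9 genes for glycolysis and -0.13 over 12 for the respiratory chain, but -0.50 over 5 for the proteasome. No list was tested against other genes.

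Apart from the lists, the genes farthest above equality included regulators of other kinds. Zscan10, a zinc finger factor of pluripotent cells, had 87 and 105 counts against 9 and 12, a log2 ratio of 3.29 (interval 2.63 to 4.01). Another zinc finger gene, Zscan12, had 374 and 378 against 101 and 97 (2.02), and Neurl3, a ubiquitin ligase gene, had 165 and 209 against 41 and 43 (2.25). Cnga1, a cyclic nucleotide-gated channel, had 69 and 83 against 20 and 10 (2.44, or 3.08 without column 1 of the SJL/J label). On the lower side, Serpina3g, a protease inhibitor of activated lymphocytes and progenitors, had 23 and 15 counts against 185 and 150 (-3.05). Rab44, a large Rab GTPase of mast cell granules, had 7 and 6 against 82 and 86 (-3.60). Nrgn, which binds calmodulin and is known from neurons and platelets, had 2 and 5 against 54 and 87 (-4.24, or -5.06 without column 2 of the TCR1640 label). Serpina3g, Rab44 and Nrgn passed the level floor only through the SJL/J label, and Zscan10 and Cnga1 only through the TCR1640 label.

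Several genes apart lay side by side on the chromosomes. The longest runs of neighbouring tested genes apart in 1 direction held 4 genes. On chromosome 6 (129180615 to 129623864), in the natural killer receptor cluster, Clec2d, Cd69, Klrd1 and Klrk1 were higher, though Cd69 stood at 0.98 without column 1 of the TCR1640 label. On chromosome 7 (140941391 to 141010770), Pgghg was lower with Ifitm2, Ifitm1 and Ifitm3. Nearby on chromosome 7 (140198499 to 140338551), the olfactory receptor genes Olfr524, Olfr525 and Olfr527 and the pseudogene Gm45456 were lower. Olfr525 had 63 and 50 counts against 290 and 331 (log2 ratio -2.36), and Olfr524 had 3 and 14 against 83 and 60 (-2.98). Of these 2, Olfr524 passed the level floor only through the SJL/J label. Without column 1 of the TCR1640 label Olfr524 stood at -2.34, and without column 2 Olfr524 stood at -4.49 and Olfr527 at -3.01 instead of -2.10. Runs of 3 genes included the interferon-inducible genes Ifi206, Ifi214 and Ifi209 on chromosome 1 (173468485 to 173647928), all higher, with Ifi214 at 107 and 132 counts against 32 and 36 (1.91). Ifi206 stood at 1.00 and lost its call under RLE (0.96) and library-total scaling (0.99) and without column 2 of the TCR1640 label (0.83). Also in runs of 3 were Skp1a, Tcf7 and the antisense gene A630014C17Rik on chromosome 11, higher (Skp1a at 0.98 without column 2 of the SJL/J label), and Ltb4r1, Adcy4 and Ripk3 on chromosome 14, lower. Ripk3, a kinase of necroptosis, had 105 and 112 counts against 384 and 389 (-1.74). Olfactory receptor, Ifi200 and Clec genes have close copies, so their counts are uncertain where reads could be split among them. Whether sequence differences between the strains of mice bear on these neighbours was not tested.

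Some further differences appeared in features that overlap a coding gene on the other strand. Of 511 noncoding features with at least 1000 counts that lie over 1 coding gene, 468 held more counts than the coding gene. No floor was set on the coding gene in this choice, which favours features that exceed their partner. They are described with their partner, and which of the pair was transcribed is uncertain. In 409 of the 479 pairs with at least 100 counts in the coding gene, feature and gene had ratios of the same sign. All 26 such features apart agreed in sign with their gene. The features were chosen after the data had been seen.

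Among these pairs, Gm15441 over Txnip, a brake on glucose uptake that is high in resting cells, had 16661 and 17771 counts against 6882 and 7533, a log2 ratio of 1.35, and Txnip itself stood at 1.36. Gm43352 over Lef1, the partner factor of TCF-1 in naive cells, had 2206 and 2371 counts against 589 and 688 (1.94), and Lef1 stood at 1.47. Gm11775 over Cd7, a T cell surface protein, had 941 and 975 against 133 and 150 (2.85), and Cd7 stood at 2.08. In these 3 pairs the feature and the gene were both higher in the library labelled TCR1640. On the lower side, Gm29233 over Thbs1, thrombospondin of platelets and myeloid cells, had 16 and 21 counts against 782 and 737 (-5.26), and Thbs1 had 9 and 7 against 405 and 411 (-5.58). Gm16897 over Cd34, the stem cell surface marker, had 58 and 44 against 921 and 932 (-4.09). Gm26577 over Myb, a progenitor transcription factor, had 664 and 772 against 3007 and 3132, and Myb itself stood at -2.15. Gm17590 over Cdk6, a cell cycle kinase, was an unequal pair, with -1.18 for the feature and -2.92 for the gene.

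**Figure D4:**
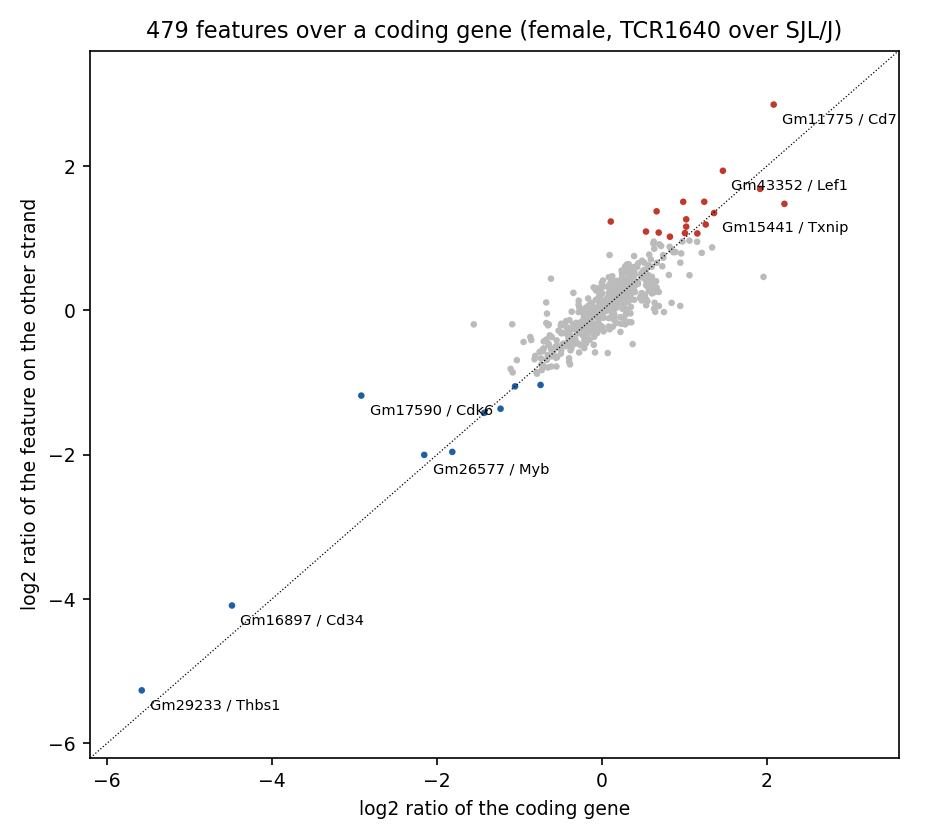
Log2 ratio, TCR1640 label over SJL/J label, of 479 noncoding features against that of the coding gene on the other strand, female columns; each point is a pair, colours mark features that were higher (red) or lower (blue), and the dotted line is equality. The pairs follow the line from Gm29233 over Thbs1 at the lower end to Gm11775 over Cd7 at the upper end.

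The male libraries of the same labels share no column with the female ones and were read as a second comparison between labels. By the same rule 3.74% of the 5903 genes tested in males were higher and 2.91% were lower. Of the 162 genes higher in females, 112 were also apart and higher in males, and 161 had the same sign. Of the 115 lower in females, 68 were also apart and lower, and 114 had the same sign. No gene was apart in opposite directions. Over genes tested in both sexes, the overlap was 71.6% of the female and 50.7% of the male list for higher genes, and 59.5% and 45.5% for lower genes. The exceptions in sign were the antisense gene Gm16185 (1.21 in females and -0.22 in males) and Gm45081 (-1.08 and 0.05, and -0.78 in females without column 1 of the TCR1640 label).

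For 29 of the genes apart in females, the counting intervals of the female and male ratios did not meet, which is no test over mice. Gzma stood at 1.37 in females and 0.37 in males, where it had 50 and 46 counts against 35 and 24. Cd96, an inhibitory receptor of killer cells, stood at 1.42 in females and 0.19 in males, and Cnga1 at 2.44 and 0.74. Gvin1, an interferon-inducible large GTPase, stood at 1.14 (531 and 546 counts against 260 and 261) and at 0.22. In the other direction, Gpr83 stood at 1.29 in females and 2.93 in males, and Qrich2, a glutamine-rich protein gene, at 1.19 and 3.01. Ifitm3 stood at -3.37 and -4.28 and Tcf7 at 1.78 and 2.19, so that several ratios were larger in the males.

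**Figure D5:**
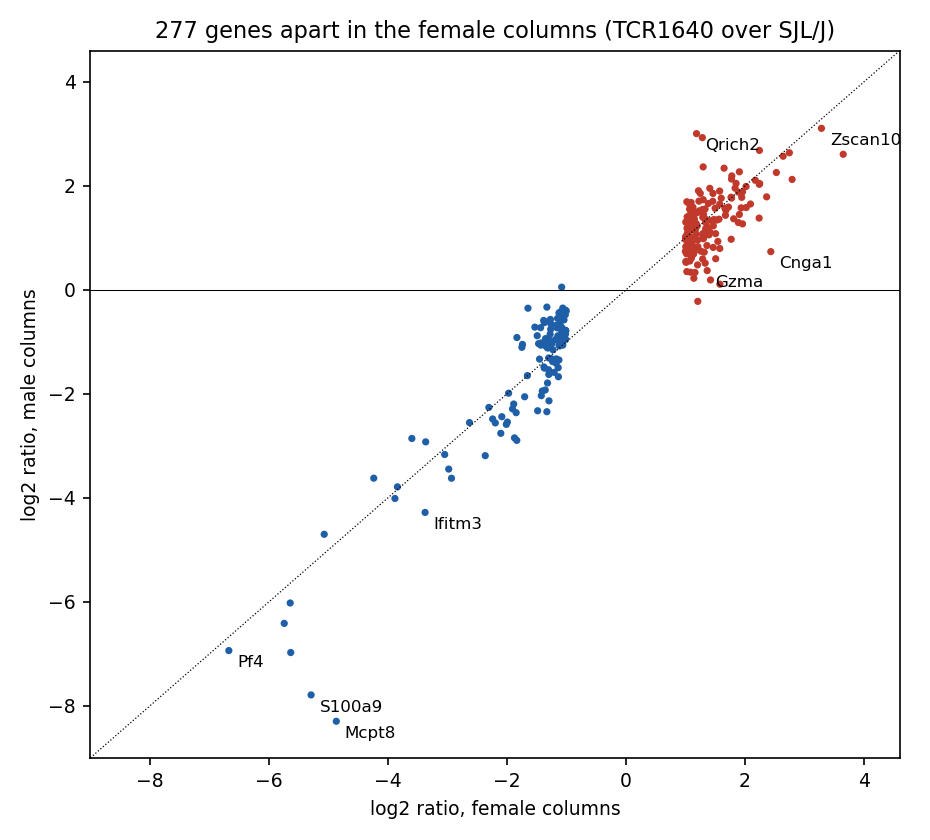
Log2 ratio in the male columns against that in the female columns, TCR1640 label over SJL/J label, for the 277 genes apart in females; red genes were higher and blue ones lower in females, and the dotted line is equality. All but 2 points keep their sign, with Mcpt8 and S100a9 farther from 0 in males and Cnga1 nearer.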

How the data were processed

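RNA was measured in 8 libraries of mouse spleen and lymph node cells, of which the 4 female columns are compared here and the male ones serve as a second comparison. Per the labels' protocols, libraries were made from 500 ng of RNA with a KAPA kit for stranded mRNA. The table the authors deposited holds raw read counts for each Ensembl gene. Software named in the submitters' processing notes is bcl2fastq 2.17, HTSeq and Bowtie2, with the mm10 build. No strand setting and no annotation release is given in the sources used here. Groups came from the sample titles.

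Symbols and positions came from GENCODE M21 (GRCm38), in which 147 of 52636 identifiers were not found. Ribosomal RNA features held 6.17% and 7.37% of counts in the libraries labelled TCR1640 and SJL/J. The 2 columns of a group were summed and scaled by TMM in edgeR 4.0.16 under R 4.3.3. A ratio with a summed count of 0 on one side uses a floor of 3 counts. Intervals at 95% are exact (scipy 1.17.1), and a gene is apart at 2-fold or more with an interval excluding equality, a mean of at least 8 CPM and no exon overlap on the opposite strand. Gm43333 differed between column numbers in both groups (14137 and 4769 counts, and 24049 and 6332). It was left out of the chi-square, which used genes with at least 20 counts in the columns compared, and was left in elsewhere. Because the columns are near-identical, edgeR's quasi-likelihood test with Benjamini-Hochberg adjustment at 0.05 was run only to count calls between libraries, with DESeq2 1.42.0 as an alternative. The 53 gene lists, the genes and the rules were chosen with earlier results of these data known. Genes named are the 15 protein-coding genes farthest from equality each way, up to 6 members apart per list, key cytokines and lineage factors (some of the genes chosen are not reported here), genes at 0 on one side with at least 100 counts on the other, the 5 longest runs of neighbours, and others shown for contrast. Other scalings, floors, overlapped genes and leaving out each column were tried as alternatives.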

Additional observations from a re-analysis of the deposited data

How the results depend on the processing

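Under RLE, upper-quartile, library-total and non-overlapped TMM scaling, the counts of genes apart (162 higher, 115 lower) stayed within 1.5 times, and the median of all genes moved by at most 0.04 on the log2 scale. Without the floor on level the counts were 635 higher and 762 lower, with a floor of 5 on the log2 CPM scale 48 and 25, and with overlapped genes included 288 and 256, since more or fewer genes were tested. Leaving out each column gave 139 to 195 higher and 119 to 160 lower. Protein-coding genes alone, an alternative chosen after seeing the data, gave 130 and 100. Of 109 tested genes named, 10 changed their call in at least 1 of the scalings (TMM replaced by RLE, upper-quartile or library totals) or on leaving out a column: Il10, Cd69, Foxp1, Gm45081, Ifi206, Skp1a and Socs1 lost it, and Il23r, Il2ra and Il6st gained it, as given beside each. No list median of at least 0.5 from 0, over 9 lists, changed sign in 81 alternatives, but sizes moved. Over the 35 lists with at least 5 tested members, the largest shift was 0.6 on leaving out a column and 0.04 by another scaling. Without the level floor the platelet median was -3.17. Traj43's share stayed between 1.89% and 7.58% for the TCR1640 label and between 74.9% and 76.3% for the SJL/J label when a column was left out. The edgeR fit of the 4 near-identical columns compares libraries, not strains: it called 5632 of 15068 genes, 5431 with the replicate block, 5111 without a filter, 4330 to 4508 when a column was left out, and 2668 by DESeq2, the cause of which was not tested. With 1 sample per group, replicate numbers pair no mice. Depth limits what can be seen of genes under about 8 CPM.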
